A study of Homo sapiens with 2 samples.

Results

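The Golgi enzymes that trim mannose from glycoproteins and then build sugar chains on them were compared between GP73 knockdown and control liver cancer cells. MAN1A1, a mannosidase of the early trimming step, differed most among those measured, with a log2 signal of 6.38 in knockdown cells, against 7.28 in control cells. The genes were chosen by name, as 48 human genes of 7 classes: trimming mannosidases, branching enzymes, galactosyltransferases, sialyltransferases, fucosyltransferases, the transferases that start O-linked chains with N-acetylgalactosamine (GalNAc), and a small class of core and chain extension enzymes. A gene was included when a row of the array was annotated with its symbol alone or with an alias of it. This held for 45 of the 48, among 22413 genes with a row of their own. FUT10 and FUT11 were found under their current names, POFUT3 and POFUT4. FUT4 shared its annotated row with PIWIL4, GALNT4 with POC1B and their readthrough gene, and POFUT1 with a microRNA gene, so these 3 are given no value.

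The cells were MHCC97H, an established human liver cancer line, measured on 2 Affymetrix whole-transcript arrays. The first array held RNA of MHCC97H cells with GP73 knocked down, and the second RNA of the MHCC97H control, described in the labels as high in GP73. The sample titles end in shGP73 for the knockdown and shv for the control, read here as a short hairpin construct in each. The study looked for genes that act with GP73, or after it, in the growth of such cells, and its title also names overexpression, which is not analysed here. Cells were grown in the same medium and RNA was taken with Trizol, while the knockdown sequence and the time after knockdown are not given by the labels. Each condition was measured once, so no value has a replicate error, no difference was tested, and a difference between the arrays cannot be told apart from one between cultures or hybridisations. Values are log2 signals as the authors deposited them, and differences are knockdown minus control. A gene is called measured when its mean log2 signal over both arrays reached 5.74, the median of that mean over all genes. This held for 11207 genes, 30 of the 45 enzymes among them. The median log2 signal over all 70523 rows was 4.80 on the knockdown array and 4.72 on the control array. GOLM1, which encodes GP73, had a signal of 7.46 in knockdown cells, against 9.13 in control cells, a difference of -1.67 and the lowest of the measured genes. Of 8 hepatocyte and liver cancer cell markers with a row, 5 were measured, while ALB, AFP and TTR, defining markers of liver cells, lay below that level on both arrays. The apolipoprotein gene APOB had 5.80 in knockdown cells, against 6.27 in control cells, a difference of -0.47, and APOA1 differed by 0.14. The other measured markers, named for completeness, differed by -0.10 for KRT8, -0.05 for KRT18 and -0.02 for SERPINA1. Measured markers of other cell types were COL1A1 among 6 of fibroblasts, KDR among 5 of endothelium and none among 4 of leukocytes. COL1A1 differed by 0.17 and KDR by -0.06, and the part of these markers in the results was not tested.

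N-linked chains reach the Golgi as mannose-rich structures. Mannosidases of the early Golgi trim them, N-acetylglucosaminyltransferases of the middle Golgi start the branches, and galactose, sialic acid and fucose are added in the late Golgi. O-linked chains are started in the Golgi itself by the polypeptide GalNAc-transferases and extended by other enzymes. In liver cancer, altered branching and fucosylation of secreted proteins are well known, and core-fucosylated alpha-fetoprotein serves as a blood marker. GP73 itself is a glycoprotein that spans the Golgi membrane.

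The promoter of MAN1A1, rich in CG pairs, is shown because this gene had the lowest difference. The RefSeq window of 300 bases, from 250 before to 50 after the start of the gene, lies at chr6:119349712-119350011 of GRCh38.p14 on the minus strand and is written 5′ to 3′ on the strand of the gene, with each CG pair in capitals.
MAN1A1 promoter: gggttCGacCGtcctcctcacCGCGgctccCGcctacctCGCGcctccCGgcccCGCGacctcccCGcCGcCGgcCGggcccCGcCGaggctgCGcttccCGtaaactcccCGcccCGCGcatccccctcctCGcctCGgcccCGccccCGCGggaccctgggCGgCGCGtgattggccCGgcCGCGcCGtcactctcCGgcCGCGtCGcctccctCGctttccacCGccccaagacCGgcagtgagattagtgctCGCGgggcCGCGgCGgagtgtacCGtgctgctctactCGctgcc
This window held 47 CG pairs and 77.3% G and C. As many CG pairs were found in 2.41% of the 35116 promoter windows of the same length in that table, whose median was 14. Of the 48 enzymes 39 had at least 1 window there, 71 windows in all, with a median of 25 CG pairs and 66.3% G and C, against 58.7% over all windows. The 39 did not include B4GALT6, FUT10, GALNT4, GALNT6, MAN1A2, MGAT3, MGAT4A, ST3GAL1 or ST3GAL2.

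The same windows were searched on both strands for ACGTGGC, an element described in genes induced by Golgi stress. It was found in windows of 4 enzymes, shown here with 15 bases on either side and the element in capitals (GCCACGT where it lies on the opposite strand). Of all windows 3.22% held it, and of the windows of the enzymes 5.63%. Counted by gene, 4 of 39 enzymes (10.3%) had it in at least 1 window, beside 3.95% of 27305 genes, and this was not tested. The shares by gene are not like for like, since the enzymes had 71 windows and all genes 35116, fewer per gene. The windows of the enzymes also held a median of 25 CG pairs, against 14, and the element contains a CG pair. Other windows of ST3GAL5 did not hold it.
B4GALT2 chr1:43979857-43979893 plus strand: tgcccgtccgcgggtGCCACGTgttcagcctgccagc
ST3GAL5 chr2:85888800-85888836 minus strand: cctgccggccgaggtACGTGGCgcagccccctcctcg
MGAT1 chr5:180802823-180802859 minus strand: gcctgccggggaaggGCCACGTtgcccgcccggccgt
FUT11 chr10:73772223-73772259 plus strand: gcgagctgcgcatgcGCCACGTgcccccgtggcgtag
The differences of these genes were 0.22 for B4GALT2, -0.42 for ST3GAL5, -0.09 for MGAT1 and -0.07 for FUT11, so the genes with the element in this window lay on either side of 0. A match is a description of the letters only, and the MAN1A1 window held none.

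Over the whole set most differences were small, and the lower ones reached further than the higher ones. Of the 30 measured enzymes 1, MAN1A1, was at least 1.5-fold lower in knockdown cells, beside 1.43% of all measured genes. No enzyme was at least 1.5-fold higher, beside 0.946% of all measured genes. By at least 0.32 on the log2 scale, 7 enzymes (23.3%) were lower, beside 11.2% of all measured genes, and none was higher, beside 7.66%. These 7 were MAN1A1, MAN1A2, GALNT7, B3GNT2, ST3GAL5, MAN2A2 and MGAT2, and they came from 5 of the 7 classes. In all, 22 of the 30 differences (73.3%) were below 0, beside 50.5% of all measured genes. With each array centred on its median these shares were 83.3% and 64.6%. The median difference of the enzymes was -0.08 and that of all measured genes -0.01. Among the 13 enzymes above the 75th percentile of signal the shares lay closer together. Of these, 2 (15.4%) were lower by at least 0.32, beside 13.7% of all genes above that level, and 7 (53.8%) were below 0, beside 59.2%. No test stands behind any of these comparisons, and the enzymes were listed with earlier results of these data known.

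**Figure D1:**
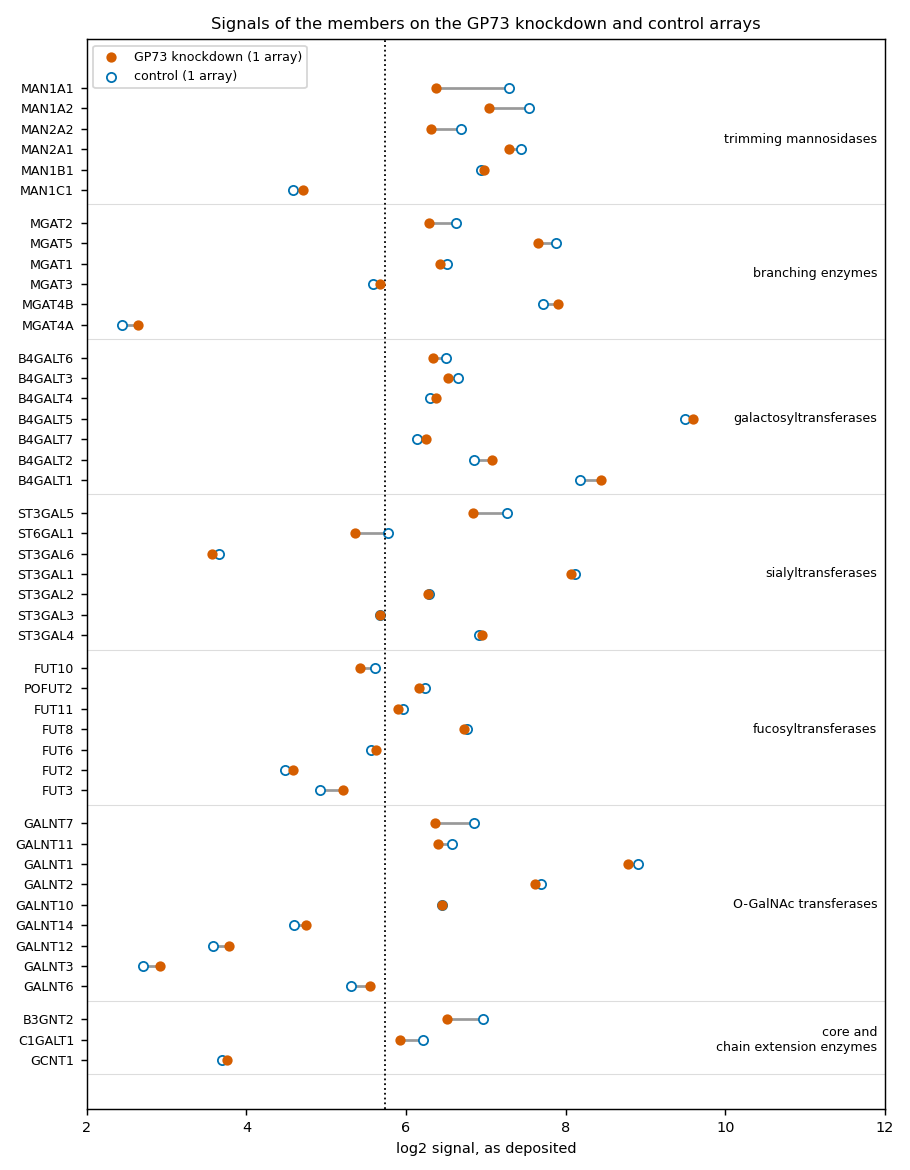
Log2 signals of the 45 enzymes with a row of their own, in 7 classes, on the GP73 knockdown array (filled) and the control array (open), with a line joining the values of a gene. The dotted line marks 5.74, the level for a measured gene. MAN1A1 shows the widest gap, 6.38 in knockdown cells and 7.28 in control cells.

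As a measure of error, 98 genes with exactly 2 measured rows of distinct values were used, and the SD of the difference within such a pair of rows was 0.127. This covers measurement on these arrays and not cultures or RNA preparations. Each measured enzyme had 1 row, so none could be set beside a second row of its own. Of the 30 differences 15 were smaller than this SD, beside 37.7% of all measured genes. Another 12 were larger and below 0, beside 3704 of the 11207 measured genes, and 3 were larger and above 0, beside 3274. The second scale was the spread of genes of like signal, taken in 20 bins. MAN1A1, MAN1A2, GALNT7 and B3GNT2 lay below the 5th percentile of their bins, the other 26 lay between the 5th and the 95th percentile, and none lay above it.

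The early trimming enzymes held the lowest difference of the set. MAN1A1, a Golgi mannosidase that removes the outer mannose residues of N-linked chains, had a log2 signal of 6.38 in knockdown cells, against 7.28 in control cells. It was 1.87-fold lower, a difference of -0.91, and rank 20 from the lowest of the 11207 measured genes. MAN1A2, which does the same step, had 7.04 in knockdown cells, against 7.54 in control cells, a difference of -0.50 or 1.41-fold lower, at rank 334. Both paralogs were therefore lower on the knockdown array, MAN1A1 by more. MAN1B1, a relative that trims mannose early and takes part in disposal of misfolded glycoproteins, had 6.98 in knockdown cells and 6.94 in control cells. Its difference of 0.04 was smaller than the SD of 0.127 between rows. MAN1C1, the remaining member of that family, lay below the level for measured genes, with 4.71 in knockdown cells and 4.58 in control cells.

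The mannosidases that act after the first branch has been added were also lower, by less. MAN2A2 had 6.31 in knockdown cells, against 6.68 in control cells, a difference of -0.37. MAN2A1 had 7.29 in knockdown cells, against 7.44 in control cells, a difference of -0.16, which was within the 5th to 95th percentile of genes of like signal. Of the 5 measured trimming mannosidases 4 were below 0, beside 50.5% of all measured genes, and the median was -0.37. By at least 0.32, 3 of the 5 were lower, beside 11.2% of all measured genes. The mannosidases of lysosome and cytosol, which break chains down, were looked at beside them. MAN2B1, MAN2B2, MANBA and MAN2C1 had differences of 0.06, 0.31, 0.08 and 0.06, all above 0, beside 5343 of the 11207 measured genes. Centring of the arrays put the median of these 4 at -0.02.

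**Figure D2:**
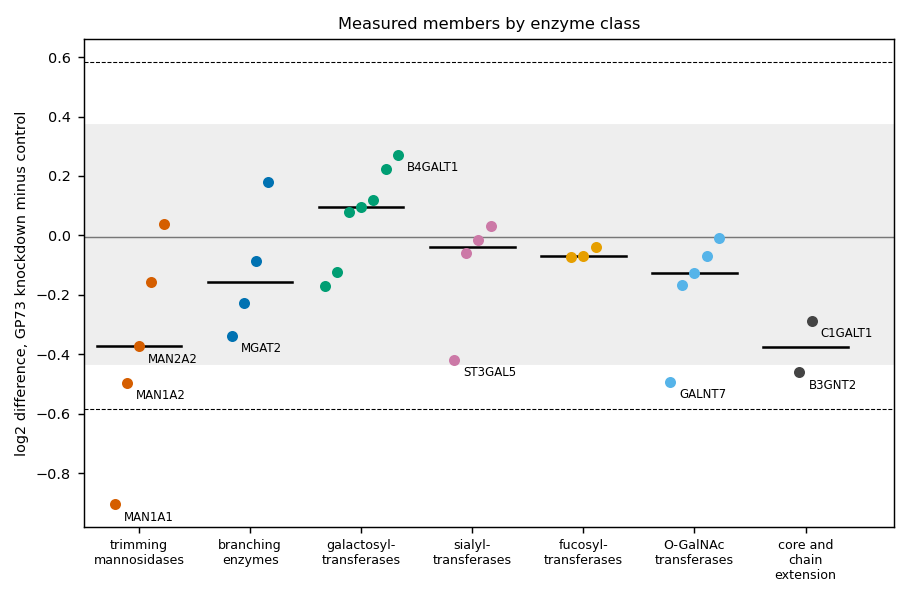
Log2 differences (knockdown minus control) of the 30 measured enzymes by class, 1 point per gene, with the class median as a bar. The grey band spans the 5th to the 95th percentile of all 11207 measured genes, and dashed lines mark 1.5-fold. MAN1A1 lies below the lower dashed line, and 5 of 7 galactosyltransferases lie above 0 in the deposited values, of which centring turns B4GALT4.

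Among the enzymes that start branches, the differences ran from -0.34 to 0.18. MGAT2, which starts the second antenna after MAN2A1 and MAN2A2 have acted, had 6.28 in knockdown cells, against 6.62 in control cells, a difference of -0.34. MGAT1, which starts the first antenna and so opens the path to hybrid and complex chains, had 6.43 in knockdown cells and 6.51 in control cells. MGAT5, whose branch carries long lactosamine chains and has been studied in tumour spread, had 7.65 in knockdown cells, against 7.88 in control cells, a difference of -0.23. MGAT4B, which makes another outer branch, went the other way, with 7.90 in knockdown cells, against 7.72 in control cells. The class therefore held differences of either sign, with a median of -0.16 over 4 measured genes. MGAT4A, with 2.64 in knockdown cells and 2.44 in control cells, and MGAT3, the enzyme of the bisecting residue, with 5.67 and 5.59 in the same order, were below the level for measured genes.

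The galactosyltransferases were the class with the highest median, 0.10 over 7 measured genes. Of these 7, 5 were above 0 and 2 below, beside 5343 of the 11207 measured genes above 0. B4GALT1, which adds galactose to N-linked chains and makes lactose in the mammary gland, had 8.44 in knockdown cells, against 8.17 in control cells, a difference of 0.27. B4GALT2, a close relative, had 7.07 in knockdown cells, against 6.85 in control cells, a difference of 0.22. B4GALT3 and B4GALT4, further relatives that act on glycoproteins, differed in sign. B4GALT3 had 6.53 in knockdown cells and 6.65 in control cells, and B4GALT4 had 6.38 in knockdown cells and 6.30 in control cells. The sign for B4GALT4 turned when the arrays were centred, at -0.01. B4GALT5 and B4GALT6 make lactosylceramide, the base of most glycosphingolipids, and also differed in sign. B4GALT5 had 9.59 in knockdown cells and 9.50 in control cells, while B4GALT6, at 6.33 in knockdown cells, differed by -0.17. B4GALT7, which acts in the linker of proteoglycans, had 6.25 in knockdown cells and 6.13 in control cells. In the deposited values no galactosyltransferase reached 0.32 in either direction, and each lay within the 5th to 95th percentile of genes of like signal. The range of the class, -0.17 to 0.27, overlapped that of the trimming mannosidases, -0.91 to 0.04. B4GALT1 passed 0.32 under quantile normalisation (0.33) and with the trend over signal removed (0.35).

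ST3GAL5 stood apart from the other sialyltransferases that were measured. It makes GM3, the first sialylated glycosphingolipid, from lactosylceramide. Its log2 signal was 6.84 in knockdown cells, against 7.26 in control cells, a difference of -0.42 or 1.34-fold lower. The other 3 measured members were close to 0. ST3GAL1 and ST3GAL2, which act mainly on O-linked chains, had 8.06 and 6.28 in knockdown cells and 8.12 and 6.29 in control cells. ST3GAL4, which acts on N-linked and O-linked chains, had 6.95 in knockdown cells and 6.92 in control cells. The sign for ST3GAL1 and ST3GAL4 depended on the scaling of the arrays. ST6GAL1, the main enzyme that caps N-linked chains of liver glycoproteins with sialic acid, had 5.36 in knockdown cells, against 5.78 in control cells. Its mean was just under the level for measured genes, and its difference, -0.42, equalled that of ST3GAL5 to 2 decimals. ST3GAL6 was low on both arrays, with 3.57 in knockdown cells and 3.66 in control cells. ST3GAL3 had 5.68 on both, identical in the deposited values.

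Little difference was seen among the 3 fucosyltransferases that were measured. FUT8, which adds the core fucose of N-linked chains, had 6.72 in knockdown cells and 6.76 in control cells, a difference of -0.04. POFUT2, which puts O-linked fucose on thrombospondin repeats, had 6.16 in knockdown cells and 6.24 in control cells. FUT11, a protein O-fucosyltransferase by its current name, had 5.90 in knockdown cells and 5.96 in control cells. All 3 measured differences were smaller than the SD of 0.127 between rows in the deposited values. With each array centred, FUT11 and POFUT2 passed it, at -0.15 and -0.16, where the median of all measured genes was -0.09. FUT11 also passed it under quantile normalisation (-0.133) and with the trend over signal removed (-0.145). FUT2, FUT3, FUT6 and FUT10 were below the level for measured genes on their mean, with knockdown signals of 4.58, 5.21, 5.62 and 5.42 and control signals of 4.48, 4.93, 5.56 and 5.61. FUT3 and FUT6 are close paralogs that make Lewis antigens, and how the array divides signal between them is uncertain. The level is no detection limit, so these genes were not shown to be silent.

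**Figure D3:**
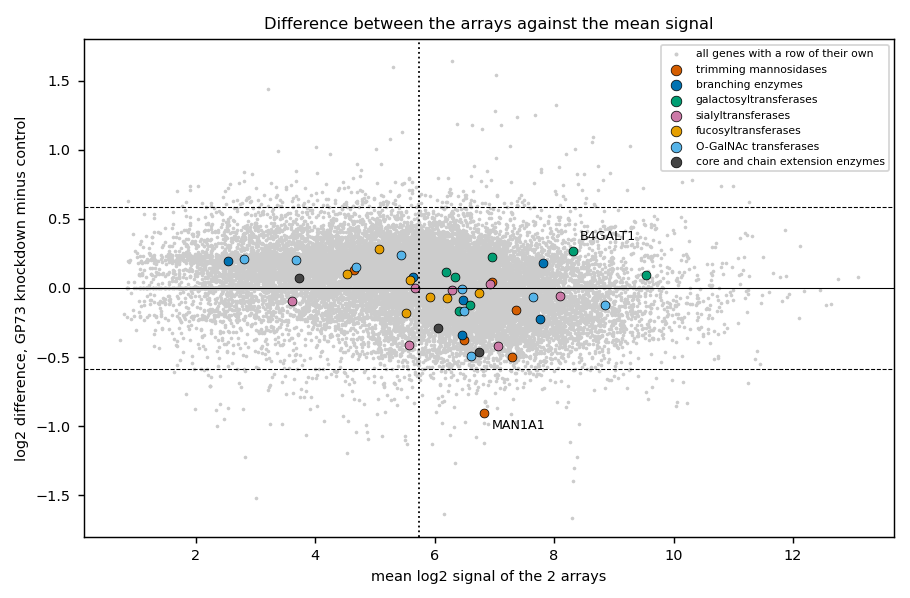
Log2 difference (knockdown minus control) against the mean log2 signal for all 22413 genes with a row (grey) and the 45 enzymes (coloured by class). The dotted line marks the level for measured genes, 5.74, and the dashed lines 1.5-fold. Enzymes left of the dotted line lie mostly above 0, as do the grey points there.

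Of the GalNAc-transferases that start O-linked chains, all 5 measured members were below 0, beside 50.5% of all measured genes. Their median was -0.13, and it was -0.01 when the weak members of the class were included. GALNT7, which prefers peptides that already carry GalNAc, had 6.36 in knockdown cells, against 6.85 in control cells. Its difference was -0.49, or 1.41-fold lower, at rank 339 of the measured genes. GALNT1 and GALNT2, broadly expressed members that start chains on bare peptides, had smaller differences. GALNT1 had 8.78 in knockdown cells and 8.91 in control cells, and GALNT2 had 7.62 in knockdown cells and 7.68 in control cells. GALNT11 had 6.40 in knockdown cells and 6.57 in control cells, and GALNT10, which like GALNT7 acts on peptides already modified, differed by -0.01. For GALNT2 the difference was 0.00 once the trend over signal was removed. GALNT3, GALNT6 and GALNT12 lay below the level for measured genes, with 2.91, 5.55 and 3.79 in knockdown cells and 2.70, 5.31 and 3.58 in control cells. GALNT14, also below it at 4.75 in knockdown cells, differed by 0.15. All of these weak members were above 0, beside 68.0% of all genes below that level.

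Both measured enzymes of the later steps on O-linked and lactosamine chains were below 0, beside 50.5% of all measured genes. B3GNT2, the main enzyme that lengthens lactosamine chains, had 6.51 in knockdown cells, against 6.97 in control cells, a difference of -0.46 or 1.38-fold lower, at rank 436. C1GALT1, which adds galactose to make the core of most O-linked chains, had 5.92 in knockdown cells, against 6.21 in control cells, a difference of -0.29. C1GALT1C1, the chaperone that C1GALT1 needs, differed by -0.09 and was looked up for that role. GCNT1, which branches that core, was low on both arrays, with 3.76 in knockdown cells and 3.69 in control cells.

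Enzymes below the level for measured genes had the opposite balance of signs. Of these 15, 11 (73.3%) had a difference above 0, with a median of 0.10. Over the 11206 genes below that level 68.0% were above 0 and the median was 0.13, a similar balance. ST6GAL1 was the lowest of the 15. Some weak signals also gave repeated values. The difference of MGAT4A, 0.20, was shared to 5 decimals by 195 rows of the array, that of GALNT12 by 141 and that of ST3GAL3, exactly 0, by 4359 rows. No measured enzyme had a difference shared by more than 20 rows. Among all measured genes the median was also lower at higher signal. Between the level for measured genes and a mean of 6.5, 12 enzymes had a median of -0.08, against 0.07 for 4028 genes. From 7 to 8, 6 enzymes had a median of -0.19, against -0.06 for 3028 genes, and above 8, 4 enzymes had a median of 0.02, against -0.08 for 1922 genes.

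Next came genes of the SLC35 family, which holds the transporters that carry nucleotide sugars, the donors of these enzymes, into the Golgi. Not every gene of the list is known to carry a donor into the Golgi. Of its 13 measured genes 12 (92.3%) were below 0, beside 50.5% of all measured genes, with a median of -0.16. This share is therefore not one of Golgi donor transporters alone. At least 1.5-fold lower was 1 of the 13, SLC35A5, beside 1.43% of all measured genes. SLC35A5 had 6.20 in knockdown cells, against 6.91 in control cells. It is an orphan member of that family. SLC35D1, which carries UDP-glucuronic acid and UDP-GalNAc in the endoplasmic reticulum, differed by -0.52, with 5.76 in knockdown cells and 6.28 in control cells. SLC35A3, which supplies UDP-GlcNAc to the branching enzymes, differed by -0.41, with 6.77 in knockdown cells and 7.18 in control cells. The transporters of the other donors, named here for that role, were nearer 0. SLC35A1, for CMP-sialic acid, differed by -0.14, SLC35A2, for UDP-galactose, by -0.02, and SLC35C1, for GDP-fucose, by -0.06. Among the enzymes that make the donors, 11 of 17 measured genes (64.7%) were below 0, nearer to the 50.5% of all genes. Their median was -0.13, and none reached 1.5-fold, beside 1.43% of all measured genes lower and 0.946% higher. UGP2, which makes UDP-glucose, differed by -0.44, and CMAS, which activates sialic acid, by -0.41.

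**Figure D4:**
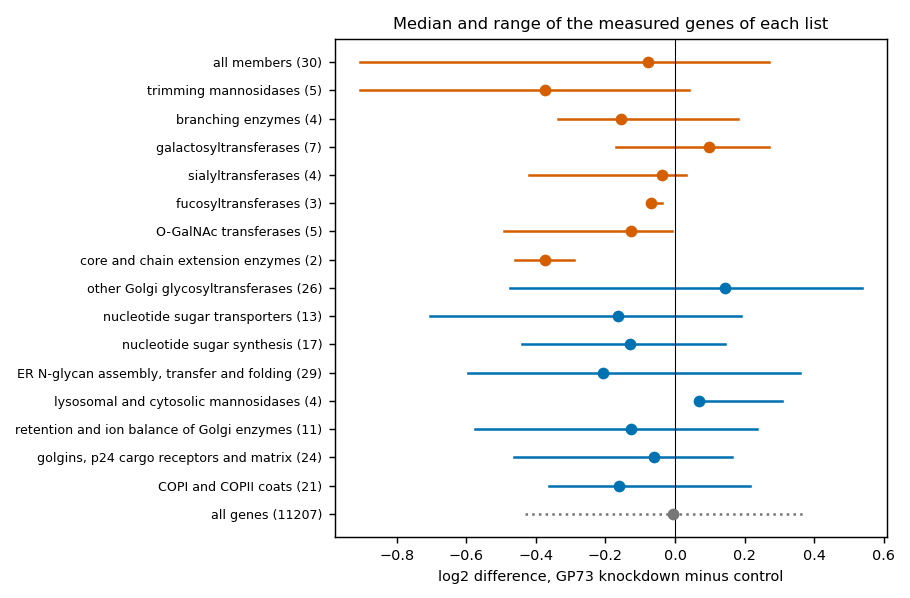
Median (point) and range (line) of the log2 differences (knockdown minus control) of the measured genes in the enzyme, glycosylation, Golgi and coat lists (cell type markers are not plotted), with their number in brackets. Orange marks the enzymes and their 7 classes, blue other lists, and the grey dotted line the 5th to 95th percentile of all measured genes. Of the 8 blue lists the ER list lies lowest, at -0.21, and the other Golgi glycosyltransferases highest, at 0.14.

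Other Golgi glycosyltransferases, 55 genes outside the 48 with C1GALT1C1 among them, had a balance of signs opposite to that of the enzymes described here. That list also held MANEA and MANEAL, which are mannosidases. MANEAL was measured, with a difference of 0.30, and MANEA lay below the level for measured genes. Of the 26 measured members of the list 7 (26.9%) were below 0, beside 50.5% of all measured genes. Above 0 were 16, beside 5343 of the 11207 measured genes, and 3 were exactly 0. The median was 0.14. None reached 1.5-fold. B3GALT4, which builds ganglioside chains, had 6.32 in knockdown cells, against 5.78 in control cells, a difference of 0.54. ST8SIA4, a polysialyltransferase, had 5.85 in knockdown cells, against 6.32 in control cells, a difference of -0.47. Many of these genes were weak, and 18 of the 26 had a mean signal under 6.5, where 12 of the enzymes described here lay. In that range their median was 0.14, against 0.07 for all genes, and above it the median of the remaining 8 was 0.09, against -0.05 for all genes. The medians lay above those of all genes in either range, and the difference between the lists was not tested.

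The steps before the Golgi were represented by genes of the endoplasmic reticulum. Of 29 measured genes that assemble, transfer and proofread N-linked chains there, 21 (72.4%) were below 0, beside 50.5% of all measured genes, with a median of -0.21. MAGT1, a subunit of the oligosaccharyltransferase, was at least 1.5-fold lower, with 8.31 in knockdown cells, against 8.90 in control cells. It was the only 1 of the 29 to be so, beside 1.43% of all measured genes. ALG10, which adds the last glucose to the lipid-linked precursor, differed by -0.58, and GANAB, the catalytic subunit of glucosidase II, by -0.51. Other oligosaccharyltransferase subunits were looked up after MAGT1 was seen. STT3A, STT3B and TUSC3 differed by -0.40, -0.24 and -0.16. RPN1, RPN2, DAD1 and OST4 differed by 0.12, 0.01, 0.13 and 0.36, so the subunits lay on either side of 0. Of 11 measured genes for retention of Golgi enzymes and for ion balance 10 (90.9%) were below 0, beside the same 50.5%, with a median of -0.13. TMEM165, a Golgi membrane protein needed for manganese supply to galactosyltransferases, differed by -0.58, with 5.67 in knockdown cells, which is below the level for measured genes, against 6.25 in control cells. The COG complex subunit COG4 differed by -0.28. The COPI and COPII coats had a median of -0.16 over 21 measured genes, 17 of them (81.0%) below 0, with ARF4 at -0.36 and SEC23B at -0.31. For the golgins, p24 cargo receptors and matrix proteins the median was -0.06 over 24 genes, 13 of them (54.2%) below 0, with GOLT1B at -0.46 and GOLGA4 at -0.45. The medians of the enzymes (-0.08) and of these neighbouring lists therefore lay on the same side of 0, and no list was shown to differ from another.

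Rescaling of the arrays left most signs of the enzymes as they were. Of the 30 measured enzymes 25 kept their sign under centring, quantile normalisation and removal of the trend over signal, 20 below 0 and 5 above. The 5 that did not were MAN1B1, B4GALT4, ST3GAL1, ST3GAL4 and GALNT2. The same count was not made over all measured genes, so these numbers have no background share. Among all measured genes centring alone moved the share below 0 from 50.5% to 64.6%. Below the level for measured genes the signs of MGAT3, FUT2, FUT6 and GCNT1 turned under at least 1 scaling, and ST3GAL3 lay below 0 in each. MAN1A1 ran from -0.99 to -0.89 and MAN1A2 from -0.58 to -0.44 over these scalings. B4GALT1 ran from 0.19 to 0.35. The medians of the trimming mannosidases (-0.46 to -0.37), the branching enzymes (-0.24 to -0.13) and the galactosyltransferases (0.01 to 0.10) kept their signs, as did those of the other 4 classes.

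**Figure D5:**
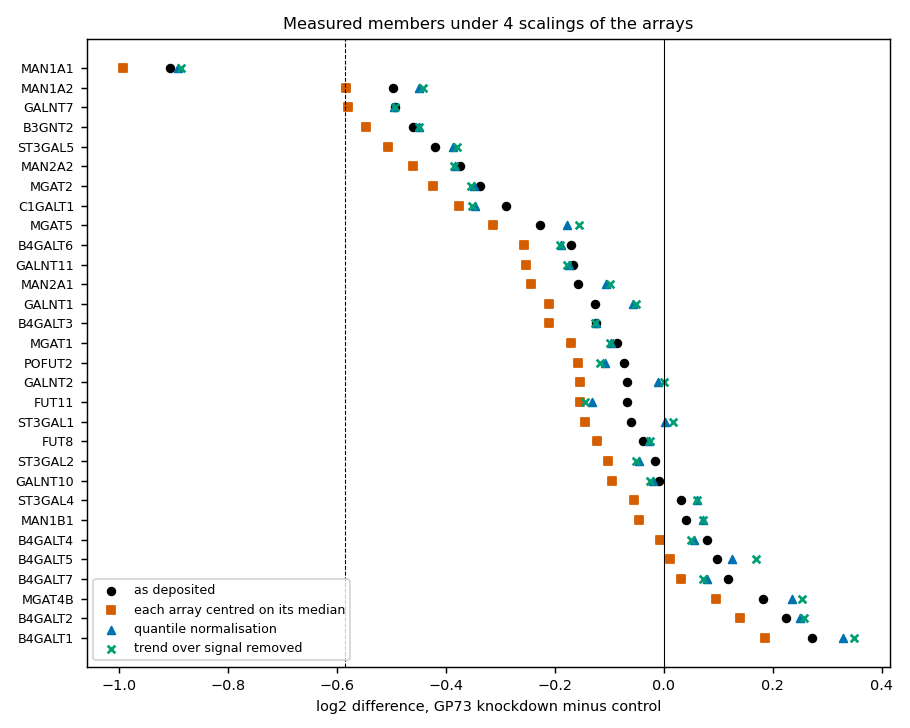
Log2 differences (knockdown minus control) of the 30 measured enzymes as deposited and under 3 other scalings of the arrays, ordered by the deposited difference. MAN1A1 lies beyond the dashed 1.5-fold line in all 4, and no other enzyme does.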

How the data were processed

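RNA of GP73 knockdown and of control MHCC97H cells was hybridised to 1 Affymetrix whole-transcript array each. The authors deposited a log2 signal for each row, and the submitters' processing notes name Affymetrix Expression Console. The log2 base was read from the range of the values, 0.33 to 13.3. The software version, background correction, normalisation, probe summary and genome build were not given in the sources used here.

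Of 70523 rows 23784 carried 1 gene symbol in the platform annotation, 1540 several and 45199 none. Current symbols came from the RefSeq gene table of GRCh38.p14, and were matched on gene identifier (21497 rows), symbol (1977) or older symbol (306), with 4 left as annotated. Positions are given for promoter windows only. The row with the highest mean stood for a gene. A gene was measured when its mean over both arrays reached the 50th percentile, so a measured gene can lie below that level on 1 array. All 30 measured members lay above it on both.

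With 1 array per group no test was possible, and the number of arrays limits the precision. Results are differences, counts past 0.32 (log2) and 1.5-fold and list medians. Named were all members, GOLM1, and of each other list the measured genes at least 1.5-fold different and the 2 next largest; other genes complete a short list or are marked. The members and lists were chosen with earlier results of these data known. Alternatives were centring, quantile normalisation, removal of a lowess trend (span 0.3), other floors (none, the 75th percentile, or the higher signal), the mean over rows, thresholds of 0.32 (log2) and 2-fold, and the mean of a list. Only quantile normalisation and removal of the trend were checked on simulated arrays, for recovery of known changes. The other steps were not checked in that way. Protein features were not analysed here. Python 3.11.15, numpy 2.4.6, pandas 2.3.3 and statsmodels 0.14.6 were used.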

Additional observations from a re-analysis of the deposited data

How the results depend on the processing

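With a floor at the 75th percentile of signal no enzyme was at least 1.5-fold lower, 0 against 1, because MAN1A1 was no longer counted. That floor moved the medians of the trimming mannosidases to -0.16, the branching enzymes to -0.023 and the galactosyltransferases to 0.22, with fewer genes in each. Without a floor the branching median was -0.00326, with the weak MGAT3 and MGAT4A included. A threshold of 0.32 on the log2 scale gave 7 lower enzymes and one of 2-fold gave 0. At 0.32, quantile normalisation and removal of the trend each gave 8 lower enzymes (26.7%) and 1 higher, B4GALT1. Of all measured genes 9.7% and 9.5% were lower in these settings. Centring gave 8 lower and 0 higher, beside 19.1% of all measured genes lower. The counts of enzymes at 1.5-fold and the class medians otherwise stayed within the limits used, 0.127 for medians, the SD within pairs of rows of a gene, under centring, quantile normalisation, removal of the trend, the floor on the higher signal and the mean over rows. Over all genes, centring gave 327 genes at least 1.5-fold lower and 57 higher, against 160 and 106 as deposited. No floor gave 281 and 261, and the 75th percentile 95 and 63. GOLM1 ran from -1.75 to -1.59 over the scalings. No replicate could be left out. No paired analysis was possible because each group held 1 array. Signal limits the weak enzymes most: of the 45 with a row, 15 lay below the level for measured genes.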
